A study of Homo sapiens with 6 samples.

Results

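The 39 genes of the human HOX clusters are described here, 11 HOXA, 10 HOXB, 9 HOXC and 9 HOXD genes out of 24462 gene symbols counted. They were taken by name alone, as every symbol made of HOXA, HOXB, HOXC or HOXD and a paralog number, so that antisense and intergenic RNAs of the clusters are kept apart and no expression value entered the choice. The data are 3 bulk RNA libraries of 1CT, an immortalized line of human colonic epithelial progenitor cells with the genotype WT, and 3 of 1CT-A, the same line with the genotype APC KD. APC is the tumour suppressor that holds β-catenin low. Both were untreated and grew in the same DMEM and M199 mixture with EGF at 20 ng/mL, hydrocortisone, insulin, selenite, transferrin and 2% FBS. Each cell line is a single line, the labels do not tell how the knockdown was made or whether replicates came from separate cultures, and p-values therefore measure only the spread between these libraries.

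HOX genes encode homeodomain transcription factors that give cells their address along the body axis. The genes lie in clusters in the order in which they are used, so that low paralog numbers pattern the hindbrain and neck, middle numbers the trunk, and high numbers the lower trunk, the hindgut and the ends of the limbs. Adult epithelia and connective tissues keep much of this pattern, and the clusters are held open or shut by Trithorax and Polycomb proteins. The factors bind DNA together with homeodomain partners of the TALE class (PBX, MEIS and PKNOX), and in the gut the CDX factors act upstream of them.

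The libraries are QuantSeq libraries, which read transcripts from their 3′ ends, so a count is a tag of a transcript end and is not divided by gene length. Levels are given in CPM, a gene's counts divided by the library's total and multiplied by 1000000. Totals were 7788679 to 8452258 counts in 1CT and 11158108 to 12602988 in 1CT-A. APC was measured at 49.3, 43.8 and 46.6 CPM in the 1CT libraries and at 31.5, 30.0 and 34.4 CPM in the 1CT-A libraries, a log2 fold change of -0.58 ± 0.09 (SE, edgeR adjusted p = 1.76e-04), so 1CT-A held less APC RNA in every library but kept most of it. The labelled epithelial type was not borne out by its defining markers: EPCAM, VIL1, CDX1 and MUC2 were at 0 in all 6 libraries, and only KRT18 and CLDN7 of 15 colon epithelium markers had at least 3 counts in each library. The summed level of those 15 genes was 41.2 to 45.2 CPM in 1CT libraries and 23.6 to 30.8 CPM in those of 1CT-A. KRT8 and CDH1 were among those that reached 3 counts in every 1CT library but not in every 1CT-A library. All 15 mesenchyme markers were counted in every library, with sums of 4995 to 6049 CPM and 4706 to 4999 CPM. Endothelial markers summed to 3.60 to 6.52 CPM in 1CT libraries and 1.08 to 2.55 CPM in those of 1CT-A with CDH5 at 0, immune markers to 11.0 to 14.4 CPM and 8.57 to 10.1 CPM with PTPRC and CD3E at 0, and neural markers to 110.1 to 112.7 CPM and 93.1 to 101.9 CPM with SOX10 and S100B at 0. The part of these marker levels in the HOX results was not tested.

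Of the 39 HOX genes, 27 reached at least 3 counts in every 1CT library and 22 did so in every 1CT-A library. All 22 were among the 27, and the 5 seen in this way in 1CT alone were HOXC4, HOXC6, HOXC10, HOXD3 and HOXD9. HOXB1, HOXC12 and HOXD12 were at 0 in all libraries, and 9 others (HOXA6, HOXA13, HOXB8, HOXB9, HOXB13, HOXC5, HOXC11, HOXC13 and HOXD1) were counted without reaching that limit throughout either line. By cluster, the lines held 9 and 9 HOXA genes, 6 and 6 HOXB genes, 5 and 2 HOXC genes, and 7 and 5 HOXD genes at the limit, so the genes seen in 1CT alone lay in HOXC and HOXD. The 1CT-A libraries were the deeper ones, so the lower number of detected genes there did not come with fewer counts in all. Over all genes, too, fewer symbols had a count there, 15653 to 15769 against 16393 to 16635 in 1CT libraries. Whether the HOX genes went beyond this was not tested.

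**Figure D1:**
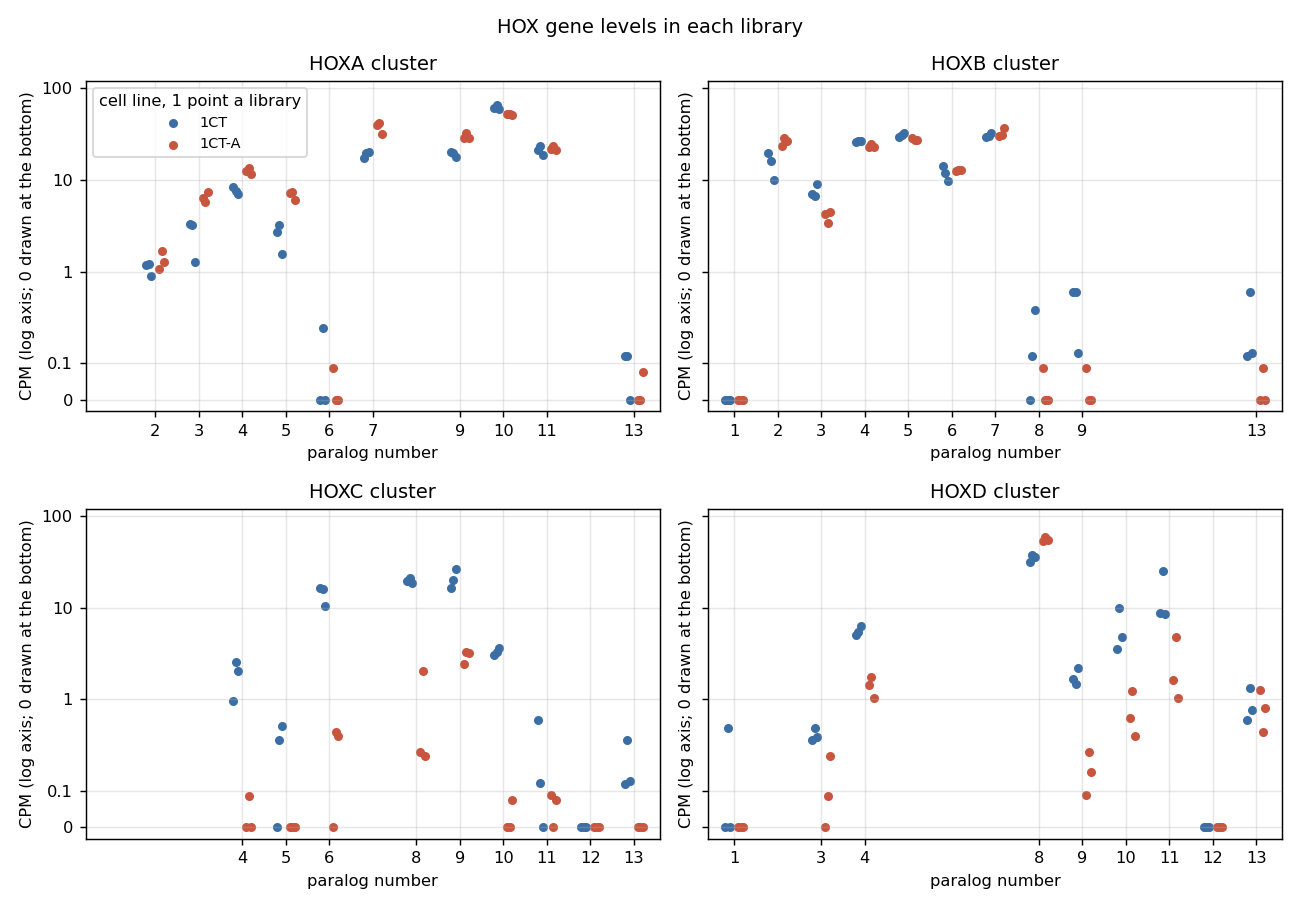
Level of the HOX genes described here in CPM on a log axis, against its paralog number, in 4 panels by cluster. Each point is 1 library, blue for 1CT and red for 1CT-A, and a level of 0 is drawn at the bottom of the axis. The HOXC panel shows the red points under the blue ones for paralogs 4, 6, 8, 9 and 10, while the HOXB points of paralogs 4 to 7 lie together.

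In the RefSeq table for GRCh38.p14, which covers 250 bases before to 50 bases after a transcript start, 26 different windows belonged to 20 of the 39 genes, HOXC4 and HOXC5 sharing 1. The following 6 are shown so that the start regions of genes that fell or lost nearly all counts in 1CT-A (the HOXC4 and HOXC5, HOXD10 and HOXD11 windows) can be set beside those of genes that rose (HOXA3, HOXA7 and HOXD8). Letters in capitals mark TTTATG, the core letters that CDX factors bind, the letters CTTTGAA and, as variants of them, CTTTGAT with also CTTTGTA and further CTTTGTT, which the Wnt effectors TCF and LEF bind, and TATAAA, the TATA box, each searched on both strands. The motifs share no whole match with each other, though TTTATG and the reverse complement of TATAAA begin alike.
HOXC4 and HOXC5, 1 shared window, GRCh38.p14 chr12:54016638-54016937, plus strand: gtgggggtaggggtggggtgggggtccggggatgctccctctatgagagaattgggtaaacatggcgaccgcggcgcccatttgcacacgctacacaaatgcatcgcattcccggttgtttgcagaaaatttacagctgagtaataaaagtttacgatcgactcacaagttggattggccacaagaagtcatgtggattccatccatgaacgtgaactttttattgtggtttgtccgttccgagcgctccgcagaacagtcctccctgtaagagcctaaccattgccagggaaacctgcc
HOXD10, GRCh38.p14 chr2:176116528-176116827, plus strand: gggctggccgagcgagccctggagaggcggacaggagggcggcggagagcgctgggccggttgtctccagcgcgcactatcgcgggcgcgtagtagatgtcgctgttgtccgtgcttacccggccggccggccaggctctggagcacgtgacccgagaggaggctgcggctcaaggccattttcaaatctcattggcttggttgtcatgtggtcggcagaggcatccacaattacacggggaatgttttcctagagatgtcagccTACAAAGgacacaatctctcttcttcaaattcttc
HOXD11, GRCh38.p14 chr2:176107030-176107329, plus strand: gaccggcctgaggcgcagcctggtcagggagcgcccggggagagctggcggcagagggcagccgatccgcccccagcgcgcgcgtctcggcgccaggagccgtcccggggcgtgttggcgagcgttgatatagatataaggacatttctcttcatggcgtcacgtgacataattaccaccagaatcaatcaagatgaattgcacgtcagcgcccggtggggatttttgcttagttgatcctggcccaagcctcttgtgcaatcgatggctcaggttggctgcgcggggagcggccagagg
HOXA3, GRCh38.p14 chr7:27152534-27152833, minus strand: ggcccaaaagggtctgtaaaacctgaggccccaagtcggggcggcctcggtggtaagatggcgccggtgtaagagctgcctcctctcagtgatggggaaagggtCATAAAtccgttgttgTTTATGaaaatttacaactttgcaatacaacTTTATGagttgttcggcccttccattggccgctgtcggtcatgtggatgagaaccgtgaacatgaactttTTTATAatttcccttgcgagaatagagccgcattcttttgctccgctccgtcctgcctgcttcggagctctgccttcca
HOXA7, GRCh38.p14 chr7:27156626-27156925, minus strand: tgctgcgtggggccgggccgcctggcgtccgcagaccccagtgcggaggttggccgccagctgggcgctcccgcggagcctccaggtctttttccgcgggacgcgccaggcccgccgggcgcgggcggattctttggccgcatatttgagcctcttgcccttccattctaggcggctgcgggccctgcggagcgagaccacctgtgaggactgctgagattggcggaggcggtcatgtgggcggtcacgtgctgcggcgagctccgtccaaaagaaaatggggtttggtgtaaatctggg
HOXD8, GRCh38.p14 chr2:176129455-176129754, plus strand: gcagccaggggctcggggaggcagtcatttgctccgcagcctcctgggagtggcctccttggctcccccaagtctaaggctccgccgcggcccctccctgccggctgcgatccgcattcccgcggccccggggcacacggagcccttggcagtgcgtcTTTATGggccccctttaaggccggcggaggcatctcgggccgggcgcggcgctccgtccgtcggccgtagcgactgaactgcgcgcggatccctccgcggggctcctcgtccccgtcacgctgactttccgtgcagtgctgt

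HOXA3 had 7 windows, and the one shown, at the outermost start, was the only one of them with any of these letters. It held the CDX letters 3 times and the TATA letters once, the HOXD8 window the CDX letters once, and the HOXD10 window the TCF letters once, after the start. The shared HOXC4 and HOXC5 window, HOXA7 and HOXD11 held none of these letters. Over all 26 HOX windows, 5 had TCF letters, 3 had CDX letters and 5 had TATA letters, where 13.8%, 10.6% and 11.5% of the 35116 windows of the whole table had them. The HOX windows were rich in CG dinucleotides, the pair that DNA methylation acts on, with a median of 22.5 a window against 14 in the whole table. The shared HOXC4 and HOXC5 window had 15 and the HOXA3 window shown 15, while HOXD10, HOXD11, HOXA7 and HOXD8 had 23, 27, 31 and 34. These letters are a description of the reference sequence and not of binding.

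Of the 39 genes, 24 passed the low-count filter and were tested with edgeR. In 1CT-A 7 were higher and 10 were lower than in 1CT at an adjusted p under 0.05, where 25.0% and 26.0% of all 12514 genes tested were called higher and lower. The genes that rose were HOXA3, HOXA4, HOXA5, HOXA7, HOXA9, HOXB2 and HOXD8. Those that fell were HOXA10, HOXB3, HOXC6, HOXC8, HOXC9, HOXC10, HOXD4, HOXD9, HOXD10 and HOXD11. HOXC6, HOXC8, HOXC10, HOXD9 and HOXD10 passed the filter through their 1CT level alone and so had to differ. This leaves 5 falls among genes that did not depend on it. Of these, HOXD4 and HOXD11 were close to the filter, with 13 counts each in 1CT-A replicate 3. With at least a 2-fold change and p under 0.01, 2 HOX genes were higher and 8 lower, where 3.80% and 9.60% of all genes were. The 5 genes that had to differ are among those 8. The CPM ranges of the lines did not overlap for 19 of the 24 tested genes, those same 5 included, against 59.7% of all genes tested. In bulk RNA fewer cells that hold a transcript and less of it in each cell cannot be told apart.

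**Figure D2:**
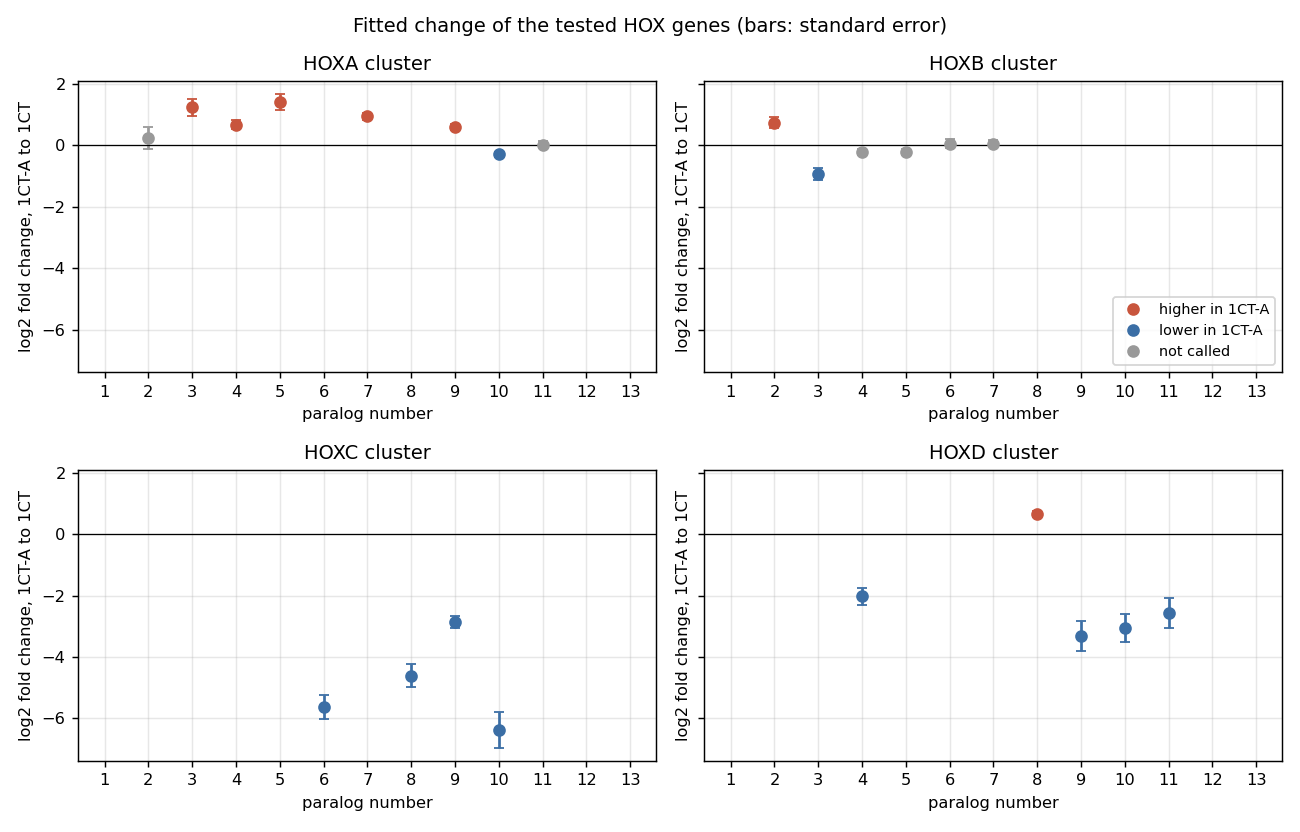
Fitted log2 fold change of 1CT-A to 1CT for 23 of the 24 tested HOX genes against paralog number, in 4 panels by cluster, with bars for the standard error. Red points were called higher, blue points lower and grey points were not called. All 4 tested HOXC genes lie between -6.37 and -2.86, HOXD8 is the one HOXD gene above 0, and the called HOXA genes of paralogs 3 to 9 lie above 0.

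The HOXC genes, which lie on the plus strand of chromosome 12 from 53938831 (HOXC13) to 54056030 (HOXC4) in GENCODE 44 on GRCh38, fell as a cluster. Their summed level was 57.5, 63.6 and 62.0 CPM in the 1CT libraries and 2.78, 5.79 and 3.97 CPM in the 1CT-A libraries. The ranges were far apart, with means of 61.1 ± 3.18 and 4.18 ± 1.52 CPM (SD, n = 3), a 14.6-fold lower sum in 1CT-A (two-sided exact permutation p = 0.1, which is the lowest 3 against 3 can reach). HOXC genes made up 15.4% to 16.8% of all HOX counts in 1CT libraries and 0.785% to 1.52% in 1CT-A libraries.

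HOXC6, a gene of the thoracic trunk, was at 16.4, 15.8 and 10.5 CPM in 1CT and at 0, 0.439 and 0.397 CPM in 1CT-A. It was high in all 1CT libraries and at or near 0 in the other line, where its counts were 0, 5 and 5. The fitted log2 fold change was -5.63 ± 0.39 (edgeR adjusted p = 1.21e-07), and 62 of the 12514 genes tested fell as much or more. HOXC6 passed the filter through 1CT alone and so had to differ, and no weight is put on that rank.

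HOXC8, which patterns the middle trunk, was at 19.8, 21.1 and 18.8 CPM in 1CT and at 0.269, 2.02 and 0.238 CPM in 1CT-A. The 1CT-A libraries did not lie together: replicate 2 had 23 counts where the others had 3 each. The fitted log2 fold change was -4.61 ± 0.37 (edgeR adjusted p = 5.48e-07), and without 1CT-A replicate 2 it was -6.26.

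HOXC9, which sets thoracic identity in motor neurons, was at 16.6, 20.0 and 26.4 CPM in 1CT and at 2.42, 3.25 and 3.17 CPM in 1CT-A. It kept the most of its level among the tested HOXC genes and gave 27, 37 and 40 of the HOXC counts left in 1CT-A. Its log2 fold change was -2.86 ± 0.21 (edgeR adjusted p = 2.02e-07).

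HOXC10, a gene of the lumbar region and hindlimb, was at 3.08, 3.26 and 3.60 CPM in 1CT and at 0, 0 and 0.0794 CPM in 1CT-A. A single count was left over the 3 libraries of 1CT-A against 81 in 1CT, a ratio of 116 between the lines with an exact 95% counting interval of 20.3 to 4642. The fitted log2 fold change of -6.37 ± 0.58 (edgeR adjusted p = 1.40e-06) became -7.98 without 1CT-A replicate 3, which held that count.

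HOXC4, the gene at the anterior end, did not pass the filter, with 8, 21 and 16 counts in 1CT and 0, 1 and 0 in 1CT-A. The ratio was 64.5 with an exact 95% counting interval of 11.0 to 2604, and HOXC4 was called lower once no filter was set. In the annotation 17.5% of its exon bases are shared with HOXC6 on the same strand, so counts of the pair may be divided between them. HOXC5, with 0, 3 and 4 counts in 1CT and none in 1CT-A, was 3.35-fold lower when 3 counts over the group stood in place of 0. HOXC13, a gene of hair and nail, had 1, 3 and 1 counts against none, 2.39-fold lower in the same way. HOXC11 had 5, 1 and 0 counts against 1, 0 and 1, a ratio of 4.30 whose interval of 0.769 to 43.6 held 1.0. All the HOXC genes with a count thus pointed the same way, and for HOXC11 the depth did not show a difference. The intervals cover counting error only. The folds with 3 counts in place of 0 take the 1CT counts as exact, so they leave out the counting error of those counts.

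The RNAs that are made from the same cluster were also fewer in 1CT-A. HOTAIR, the long RNA between HOXC11 and HOXC12 known for its ties to Polycomb, had 7, 8 and 4 counts in 1CT and 0 in each 1CT-A library. With 3 counts over the group in place of 0 it was 9.08-fold lower. HOXC-AS1 had 20, 8 and 6 counts against 2, 3 and 3, and HOXC-AS3 had 2, 4 and 2 against none, 3.82-fold lower in the same way. None of the 3 passed the filter, so no fitted test stands behind these values.

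The genes beside the HOXC cluster did not move with it as a group. Of 8 neighbours in the files 6 were tested, and 1 was higher, 1 lower and 4 not called. SMUG1, a DNA repair enzyme 65.3 kb away and the nearest of those tested, had a log2 fold change of 0.08 ± 0.12 (edgeR adjusted p = 0.627). CBX5, the heterochromatin protein HP1α at 174.9 kb, was higher by 0.40 ± 0.08 (edgeR adjusted p = 0.00108), and CALCOCO1 at 211.1 kb on the other side was lower by 0.98 ± 0.24 (edgeR adjusted p = 0.00410). HNRNPA1, COPZ1 and ATP5G2 stood at 0.08, -0.05 and 0.10. Across the 4 clusters 29 neighbours were tested, and 8 were higher and 7 lower, near the 25.0% and 26.0% of all genes. Some of the 7 passed the filter through 1CT alone and so had to differ. The median log2 fold change of the 29 was 0.03 beside -0.01 for all genes.

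**Figure D3:**
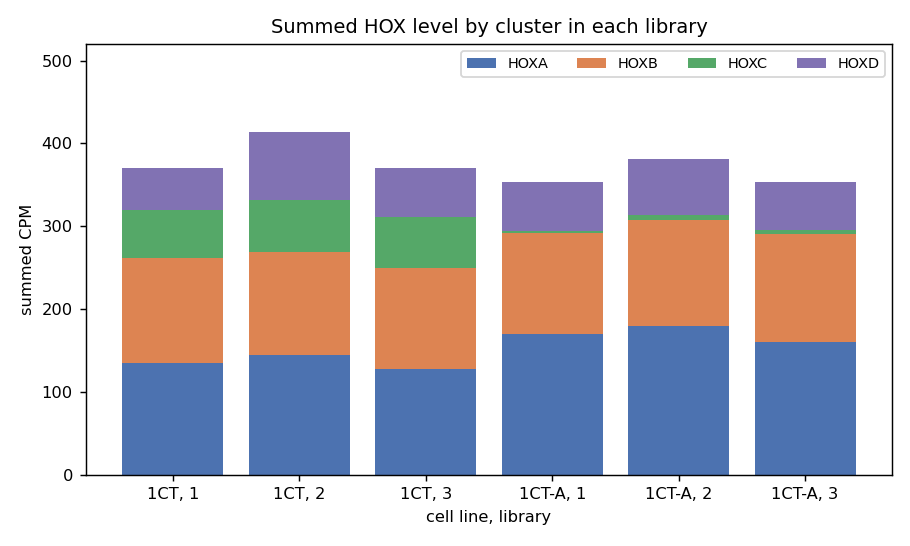
Summed CPM of the HOX genes in each of the 6 libraries, stacked by cluster. The HOXC part is 57.5 to 63.6 CPM in the 1CT bars and 2.78 to 5.79 CPM in the 1CT-A bars, the HOXA part is larger in 1CT-A, and the full height differs little between the lines.

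The HOXA genes of paralogs 3 to 9 that could be tested rose. The cluster lies on the minus strand of chromosome 7, and its summed level was 135.5, 145.0 and 127.9 CPM in 1CT and 170.2, 179.0 and 160.6 CPM in 1CT-A. Every 1CT-A library was above every 1CT library, with means of 136.1 ± 8.58 and 169.9 ± 9.19 CPM (SD, n = 3) and an exact two-sided permutation p = 0.1. HOXA genes made up 34.6% to 36.6% of HOX counts in 1CT and 45.4% to 48.1% in 1CT-A. The rise of this sum and share lay mostly in HOXA4, HOXA7 and HOXA9, whose counts may belong to overlapping entries, as described below.

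HOXA3, which shapes the pharyngeal arches, was at 3.31, 3.26 and 1.28 CPM in 1CT and at 6.27, 5.71 and 7.30 CPM in 1CT-A. The ranges did not overlap and the log2 fold change was 1.24 ± 0.28 (edgeR adjusted p = 0.00229). HOXA5, needed for lung and gut development, was at 2.72, 3.26 and 1.54 CPM against 7.26, 7.46 and 6.11 CPM. It rose by 1.42 ± 0.25 on the log2 scale (edgeR adjusted p = 3.84e-04), the largest fitted rise among the tested HOX genes. HOXA3 and HOXA5 were the only HOX genes to rise at least 2-fold. In the annotation HOXA3 shares 10.6% of its exon bases with the antisense entry HOXA-AS2 and 6.73% with HOXA-AS3. Some of its reads may thus be shared with them.

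HOXA4 was at 8.40, 7.49 and 6.93 CPM in 1CT and at 12.6, 13.3 and 11.7 CPM in 1CT-A, a log2 fold change of 0.68 ± 0.14 (edgeR adjusted p = 0.00165). HOXA7, a trunk gene, was at 17.3, 19.6 and 20.0 CPM against 39.3, 41.4 and 31.6 CPM, a change of 0.94 ± 0.12 (edgeR adjusted p = 3.29e-05). HOXA9, best known from blood stem cells and leukaemia, was at 20.0, 19.4 and 18.0 CPM against 28.6, 32.5 and 28.6 CPM, a change of 0.60 ± 0.10 (edgeR adjusted p = 3.20e-04). In all 3 genes the lowest 1CT-A library was above the highest 1CT library.

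The counts of these 3 genes cannot be told apart from those of overlapping entries. HOXA9 and the read-through entry HOXA10-HOXA9 differed by at most 2 counts in any library. HOXA7 and the antisense entry HOXA-AS3, which covers 62.5% of HOXA7 exon bases on the other strand, differed by at most 11, and HOXA4 and HOXA-AS2 by at most 6. A strand setting for the counting is not given in the sources used here, so the rise may belong to either entry of a pair. Mean levels of HOXA4, HOXA7 and HOXA9 were 7.61, 18.95 and 19.1 CPM in 1CT and 12.5, 37.45 and 29.9 CPM in 1CT-A. Every sum that includes these genes, of the HOXA cluster or of paralogs, carries the same limit.

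HOXA10 and HOXA11, which pattern the uterus, kidney and limb, lie at the boundary of this rise. HOXA10 was at 60.5, 65.9 and 59.3 CPM in 1CT and at 52.1, 52.7 and 51.2 CPM in 1CT-A. It fell by 0.29 ± 0.08 on the log2 scale (edgeR adjusted p = 0.00804), a change of 1.22-fold with no overlap between the lines. HOXA11 was at 21.1, 23.5 and 18.5 CPM against 21.5, 23.5 and 21.1 CPM, with overlapping ranges and a change of 0.03 ± 0.11 (edgeR adjusted p = 0.856). Along the cluster the called direction thus turned from higher to lower between HOXA9 and HOXA10.

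Other HOXA genes were at low levels. HOXA2, a hindbrain gene, was at 1.18, 1.21 and 0.899 CPM in 1CT and at 1.07, 1.67 and 1.27 CPM in 1CT-A, with overlapping ranges and a log2 fold change of 0.24 ± 0.35 (edgeR adjusted p = 0.593). HOXA6 had at most 2 counts in a library. HOXA13, the HOXA gene of the hindgut and the distal limb, had at most 1 count in any library, so its level was under the limit of 3 counts throughout.

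The HOXB cluster, at 48528526 to 48728750 of chromosome 17 on the minus strand, showed no detectable difference in its sum. Its summed CPM was 126.2, 123.4 and 121.3 in 1CT and 121.8, 128.6 and 130.6 in 1CT-A, with overlapping ranges (exact permutation test, two-sided, p = 0.3). Of 6 tested genes 1 was higher, 1 lower and 4 not called, and these calls sat next to each other at the anterior end. HOXB2, a hindbrain gene, was at 19.9, 15.9 and 9.89 CPM in 1CT and at 23.2, 28.9 and 26.5 CPM in 1CT-A, a rise of 0.74 ± 0.18 on the log2 scale (edgeR adjusted p = 0.00436). HOXB3, its neighbour, was at 6.98, 6.64 and 8.99 CPM against 4.21, 3.42 and 4.44 CPM, a fall with a log2 fold change of -0.94 ± 0.20 (edgeR adjusted p = 0.00192). Neither gene overlapped between the lines, and in sum paralog group 3 (HOXA3, HOXB3 and HOXD3) stood at 10.6 ± 0.155 CPM in 1CT and 10.6 ± 1.38 CPM in 1CT-A.

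The genes HOXB4 to HOXB7 differed by about 1.15-fold at most in the fit. HOXB4, which expands blood stem cells, was at 26.0, 26.3 and 26.6 CPM in 1CT and at 22.9, 24.6 and 23.0 CPM in 1CT-A. HOXB5 was at 29.3, 31.3 and 32.6 CPM against 28.6, 27.4 and 27.2 CPM. Both were lower in every 1CT-A library without overlap, but with log2 fold changes of -0.20 ± 0.10 and -0.20 ± 0.09 they missed the threshold (edgeR adjusted p = 0.0962 and 0.0881). HOXB6 was at 14.2, 11.8 and 9.76 CPM against 12.4, 12.99 and 12.8 CPM, and HOXB7 at 29.1, 30.1 and 32.9 CPM against 30.3, 31.2 and 36.6 CPM. These ranges overlapped, with log2 fold changes of 0.05 ± 0.15 and 0.06 ± 0.10 (edgeR adjusted p = 0.784 and 0.679).

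The posterior HOXB genes were near 0. HOXB9 had 5, 5 and 1 counts in 1CT and 1, 0 and 0 in 1CT-A, a ratio of 15.8 with an exact 95% counting interval of 2.29 to 679. HOXB13, the marker of prostate and distal colon, had 1, 5 and 1 counts against 0, 1 and 0, a ratio of 10.0 with an interval of 1.29 to 452. HOXB8 had at most 3 counts in a library and a ratio of 5.73 whose interval, 0.567 to 282, held 1.0.

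The HOXD cluster, at 176092721 to 176190907 of chromosome 2 on the plus strand, changed in its make-up, while its sums overlapped. The sum was 51.2, 81.5 and 58.9 CPM in 1CT and 59.0, 67.3 and 58.7 CPM in 1CT-A, with overlapping ranges (exact permutation test, two-sided, p = 0.9). The log2 ratio of the means was -0.05, and without 1CT replicate 2, the highest library, it was 0.16. HOXD8 rose, while HOXD4, HOXD9, HOXD10 and HOXD11 fell.

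HOXD8, a trunk gene, was at 31.2, 37.4 and 36.0 CPM in 1CT and at 54.0, 58.8 and 55.1 CPM in 1CT-A. All 1CT-A libraries were well above the 1CT libraries, with a log2 fold change of 0.64 ± 0.09 (edgeR adjusted p = 7.87e-05). The antisense entry HOXD-AS2, which covers 24.4% of HOXD8 exon bases, fell in the same libraries by 0.90 ± 0.17 on the log2 scale (edgeR adjusted p = 6.96e-04). This pair was thus not counted wholly in common, though some reads may be shared.

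HOXD4, a gene of the neck region, was at 5.09, 5.43 and 6.29 CPM in 1CT and at 1.43, 1.75 and 1.03 CPM in 1CT-A. The lines were clearly apart, with a log2 fold change of -2.03 ± 0.26 (edgeR adjusted p = 3.10e-05). HOXD9, which with its posterior neighbours patterns the limb, was at 1.66, 1.45 and 2.18 CPM against 0.0896, 0.263 and 0.159 CPM. It had 1 to 3 counts in each 1CT-A library, and its fitted change was -3.31 ± 0.49 (edgeR adjusted p = 9.35e-05).

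HOXD10, a gene of lumbar motor neurons and the limb, was at 3.55, 9.90 and 4.75 CPM in 1CT and at 0.627, 1.23 and 0.397 CPM in 1CT-A. HOXD11, which shapes the forearm and kidney, was at 8.76, 25.0 and 8.60 CPM against 1.61, 4.74 and 1.03 CPM. Replicate 2 was the highest library of its line for both genes in both lines, yet the lines did not overlap. The log2 fold changes were -3.05 ± 0.45 and -2.57 ± 0.49 (edgeR adjusted p = 1.03e-04 and 6.87e-04). For HOXD11 it was -1.87 without 1CT replicate 2 and -3.45 without 1CT-A replicate 2, and it passed the test both times. The annotation gives the pair 452 shared exon bases on the same strand, so reads there may count for either.

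The remaining HOXD genes were close to the limit of detection. HOXD3 had 3, 4 and 3 counts in 1CT and 0, 1 and 3 in 1CT-A. HOXD13, the gene of the digits and the hindgut end, had 5, 11 and 6 counts against 14, 5 and 10, with overlapping ranges of 0.592 to 1.33 and 0.439 to 1.25 CPM. HOXD1 had 4 counts in 1 library of 1CT and none elsewhere. With 3 counts over the group in place of 0 this is 1.91-fold lower in 1CT-A, and it rests on that library alone.

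Summed over all clusters, HOX RNA differed little between the lines, at 370.4, 413.5 and 370.2 CPM in 1CT and 353.7, 380.7 and 353.9 CPM in 1CT-A (exact permutation test, two-sided, p = 0.3). By position, paralogs 1 to 3 stood at 28.2 ± 4.95 CPM in 1CT and 39.4 ± 2.78 CPM in 1CT-A, and paralogs 9 to 13 at 150.5 ± 18.6 and 111.2 ± 6.48 CPM (SD, n = 3). In neither band did the lines overlap, in opposite directions, and each had an exact two-sided permutation p = 0.1. Paralogs 4 to 8 stood at 206.1 ± 6.26 and 212.2 ± 8.30 CPM and overlapped (exact permutation p = 0.4). The higher sum of paralogs 1 to 3 lay mostly in HOXB2, at means of 15.2 and 26.2 CPM, while group 3 was at 10.6 CPM in both lines. Among paralogs 9 to 13 the largest fall in CPM was that of HOXC9, at means of 21.0 and 2.95 CPM. HOXD11, at 14.1 and 2.46 CPM, and HOXA10, at 61.9 and 52.0 CPM, also fell, while HOXA9 rose. This band thus counts the HOXC fall again in part, and its sum without HOXC genes was not tested. Of 8 tested genes with paralog numbers 9 to 13, 1 was higher and 6 were lower, 3 of which (HOXC10, HOXD9 and HOXD10) passed the filter through 1CT alone and had to differ. Of 5 with numbers 1 to 3, 2 were higher and 1 lower, where 25.0% and 26.0% of all genes tested were called higher and lower.

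Members of a paralog group have closely related homeodomains. Among groups with a tested HOXC gene, its fall stood beside a rise in another cluster in groups 8 and 9 and not in groups 6 and 10. In groups 4 and 5, HOXC4 and HOXC5 were under the filter with fewer counts in 1CT-A, beside called rises of HOXA4 and HOXA5. Group 4, where HOXD4 also fell, was at 41.4 ± 0.782 CPM in 1CT and 37.5 ± 2.08 CPM in 1CT-A, and group 5 at 33.9 ± 1.57 and 34.7 ± 1.27 CPM. Group 8 stood at 54.9 ± 3.85 CPM in 1CT and 56.8 ± 3.51 CPM in 1CT-A (SD, n = 3), with HOXC8 at a mean of 19.9 CPM in 1CT and 0.842 CPM in 1CT-A and HOXD8 at 34.9 and 55.9 CPM. Group 9 was at 42.4 ± 4.03 and 33.1 ± 2.57 CPM, with HOXC9 and HOXD9 falling and HOXA9 rising. Group 6 was at 26.3 ± 5.37 and 13.1 ± 0.517 CPM, as HOXC6 fell and HOXB6 was not called. Group 10 was at 71.3 ± 6.77 and 52.8 ± 1.12 CPM, with falls in HOXA10, HOXC10 and HOXD10. Group 7, which has no HOXC or HOXD member, was at 49.6 ± 3.26 and 70.2 ± 2.30 CPM, and its HOXA7 counts may belong to HOXA-AS3. The lines overlapped in groups 5 and 8 and did not in groups 4, 6, 7, 9 and 10, where an exact permutation test of 3 against 3 cannot go below p = 0.1.

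**Figure D4:**
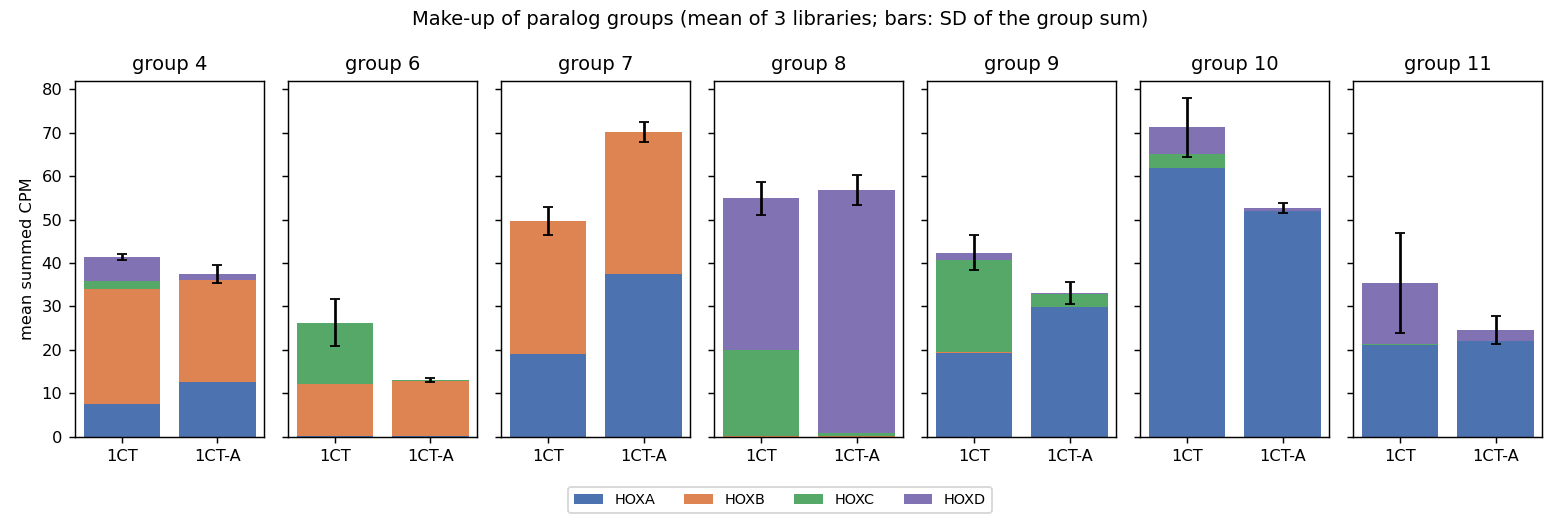
Mean CPM of 7 paralog groups in 1CT and 1CT-A, stacked by cluster, with bars for the SD of the group sum over 3 libraries. In group 8 the HOXC part shrinks, the HOXD part grows and the heights are 54.9 and 56.8 CPM, while group 6 drops from 26.3 to 13.1 CPM.

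Of 16 antisense and intergenic RNAs of the clusters in the files, 9 were tested, and 2 were higher, 5 lower and 2 not called. Of all genes, 25.0% and 26.0% were called higher and lower. Among the 5 was an entry that passed the filter through 1CT alone and so had to differ. The 2 that rose, HOXA-AS2 and HOXA-AS3, had nearly the same counts as HOXA4 and HOXA7. HOXA-AS3 was at 17.5, 20.3 and 20.2 CPM in 1CT and 40.3, 41.8 and 32.3 CPM in 1CT-A, the same counts as HOXA7 within the difference given. HOXA11-AS was at 20.5, 21.6 and 26.4 CPM against 14.2, 17.7 and 13.3 CPM, a log2 fold change of -0.64 ± 0.14 (edgeR adjusted p = 0.00234), although HOXA11 itself was not called. HOXA10-AS fell by 0.35 ± 0.09 on the log2 scale (edgeR adjusted p = 0.00368) beside -0.29 ± 0.08 for HOXA10, and the difference between these values was not tested. Their median log2 fold change was -0.35 beside -0.01 for all genes.

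Among the TALE partners of the HOX factors that are described here, PBX3 rose, MEIS3 fell and PBX2, MEIS1, MEIS2 and PKNOX1 were not called. PBX3 was at 44.6, 47.8 and 43.3 CPM against 54.1, 57.7 and 56.4 CPM, a rise of 0.27 ± 0.08 (edgeR adjusted p = 0.0132). MEIS3 fell from 78.0, 79.9 and 77.5 CPM to 46.6, 47.0 and 51.9 CPM, a log2 fold change of -0.73 ± 0.08 (edgeR adjusted p = 7.37e-06). In both genes the lines did not overlap. PBX2, MEIS1, MEIS2 and PKNOX1 had log2 fold changes of 0.16, -0.23, -0.07 and 0.09. Under the filter, PBX4 had 4, 9 and 7 counts in 1CT and none in 1CT-A, 9.56-fold lower with 3 counts over the group in place of 0. PKNOX2 had 3, 3 and 1 counts against 10, 12 and 16.

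Several factors that mark the hindgut were missing in both lines. CDX1, CDX4, PRAC1 and PRAC2 were at 0 in all libraries, CDX2 had 1 count and HNF4A 2 counts in 1 library of 1CT, and FOXA2 had at most 2 counts in a library. FOXA1, an endoderm factor, had 7, 12 and 8 counts in 1CT and 4, 4 and 6 in 1CT-A. GATA6, an endoderm and mesoderm factor, fell from 4.50, 4.71 and 2.83 CPM to 0.269, 0.527 and 0.555 CPM, a log2 fold change of -3.15 ± 0.37 (edgeR adjusted p = 1.29e-05). GATA6 passed the low-count filter through 1CT alone and so had to differ. Of 9 foregut and midgut factors, HHEX alone was tested and was not called (log2 fold change -0.47 ± 0.23), and PDX1, ONECUT1 and NKX2-1 were at 0. SOX2 and GATA4 had 1 count each, BARX1 at most 2 in a library, and FOXE1 and ONECUT2 at most 4.

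Of 18 positional factors of limb, skin and trunk mesenchyme, 10 were tested and all were called. There were 7 higher and 3 lower, where 25.0% and 26.0% of all genes were, with a median log2 fold change of 1.17. Some of them, PRRX1 included, passed the low-count filter only through the line where they were higher and so had to differ. These counts and the median carry that limit. PITX1, the hindlimb factor, was at 122, 119 and 126 CPM in 1CT and 389, 371 and 387 CPM in 1CT-A, a log2 fold change of 1.61 ± 0.07 (edgeR adjusted p = 1.75e-09). TWIST1, a mesenchymal factor, was at 35.4, 29.2 and 21.8 CPM against 102, 104 and 119 CPM, a change of 1.87 ± 0.13 (edgeR adjusted p = 1.68e-07). TBX2, a limb and heart factor, was at 29.7, 39.1 and 28.6 CPM against 100, 99.9 and 104 CPM, a change of 1.60 ± 0.11 (edgeR adjusted p = 9.11e-08). For these genes no 1CT library came near a 1CT-A library. TWIST2 and TBX3 rose by 0.75 ± 0.09 and 0.37 ± 0.09 on the log2 scale (edgeR adjusted p = 1.59e-05 and 0.00412). The 3 that fell were less abundant than the rising genes named here, though not than every gene of the list that rose. PRRX1, a homeodomain factor of limb mesenchyme, was at 7.69, 8.94 and 10.3 CPM in 1CT and at 1.52, 1.67 and 0.714 CPM in 1CT-A, a log2 fold change of -2.83 ± 0.28 (edgeR adjusted p = 2.77e-06). Its relative PRRX2 and the limb and face factor MSX1 had log2 fold changes of -1.25 ± 0.17 and -0.82 ± 0.18 (edgeR adjusted p = 5.26e-05 and 0.00226).

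Of the Polycomb genes, whose products silence HOX clusters, all 19 listed were tested, and 10 were higher, 2 lower and 7 not called, where 25.0% and 26.0% of all genes were called higher and lower. In this list the median log2 fold change was 0.29. EED and SUZ12, core members of the complex that methylates histone H3 for silencing, rose by 0.72 ± 0.09 and 0.59 ± 0.09, its partner PHF19 rose by 0.61 ± 0.08, and BMI1, of the second Polycomb complex, rose by 0.53 ± 0.10 (edgeR adjusted p = 2.50e-05, 1.19e-04, 4.50e-05 and 8.94e-04). EZH1, the alternative methyltransferase, and CBX7, a reader of the mark, fell, with log2 fold changes of -1.10 ± 0.14 and -1.05 ± 0.13 (edgeR adjusted p = 2.47e-05 and 2.32e-05). Of 11 Trithorax and HOX-activating genes, all tested, 4 were higher and 1 was lower, shares that can be read against the same 25.0% and 26.0%. The 4 were PSIP1, WDR5, RBBP5 and CTCF, an insulator protein that divides the clusters, with log2 fold changes of 0.73, 0.58, 0.28 and 0.68, and the one that fell was KMT2A, the methyltransferase that keeps HOX genes active, at -0.43 ± 0.08 (edgeR adjusted p = 6.42e-04). Of 15 genes of retinoic acid control, the signal that opens the clusters from their anterior end, 6 were tested, 2 were higher and 4 were not called, where 25.0% of all genes were higher. RARA, a retinoic acid receptor, rose by 0.61 ± 0.14 (edgeR adjusted p = 0.00220).

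**Figure D5:**
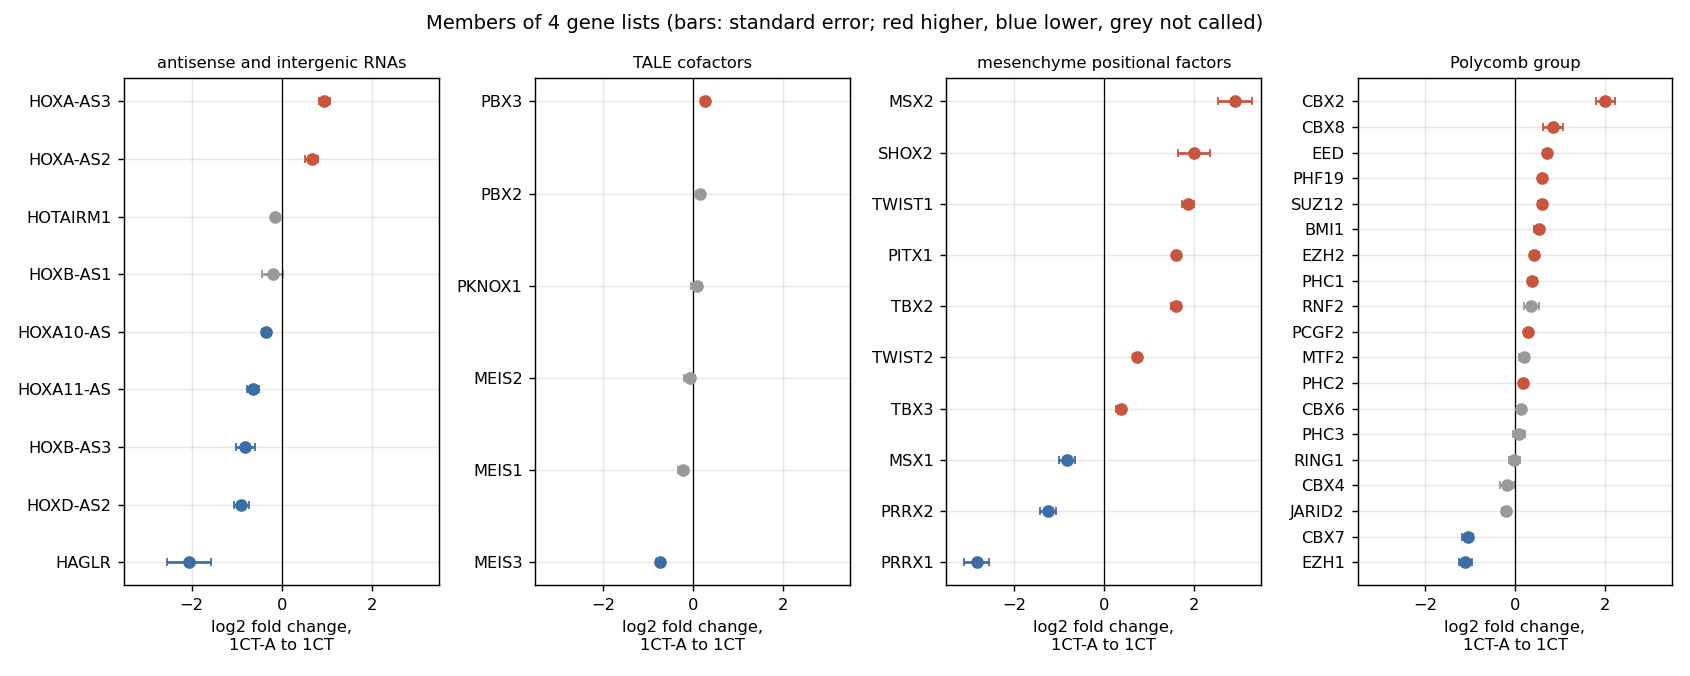
Fitted log2 fold change of 1CT-A to 1CT with its standard error for tested members of 4 lists, the RNAs of the HOX clusters, the TALE partners, the mesenchyme factors and the Polycomb genes. Red points were called higher, blue points lower and grey points were not called. In the TALE panel MEIS3 is the blue point at -0.73, and 10 of 19 Polycomb genes are red.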

How the data were processed

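RNA of 3 libraries of 1CT and 3 of 1CT-A was prepared from 500 ng of total RNA with the QuantSeq kit. For each library the authors deposited a file of raw counts by gene symbol, not normalized and not pooled. The submitters' processing notes name Bowtie2, edgeR and the build hg19, with no role or version, and the annotation, filters and strand setting are not given in the sources used here. Each file had 25737 entries for 24462 symbols. The 286 repeated symbols, none of them a HOX gene, were summed.

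From these counts, CPM were computed on each library's total. The test was the edgeR 4.0.16 quasi-likelihood test in R 4.3.3 of 1CT-A against 1CT over all 12514 genes that passed filterByExpr with a minimum count of 10, with TMM factors of 0.975 to 1.02 and Benjamini-Hochberg adjustment over all genes tested. A gene was called at an adjusted p under 0.05, and SE is the size of the log2 fold change divided by the square root of the F statistic. The script was tested on simulated data. Sums over clusters and paralogs were compared by exact two-sided permutation over libraries, which cannot go below p = 0.1 with 3 against 3. A gene was taken as seen from 3 counts upward. A fold against a line without counts used 3 counts over the group in place of 0 and took the other line's counts as exact. A ratio against 1 to 3 counts has an exact conditional 95% interval.

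The HOX genes and the other lists were chosen with earlier results of these data known. A few genes, in the HOX clusters and in other lists, are not reported here, though counts and sums over lists include them. The other HOX genes are all accounted for, with values in every library for those seen throughout at least 1 line. From other lists the text names called members with a mean of at least 10 CPM, up to 6 a list, and members of lists of 10 or fewer. Cluster RNAs and neighbours that bear on the HOXC result, and the mesenchyme factors that fell, were named outside this rule, after their values were seen. Replicates differed by more than counting noise, the chi-square between pairs of libraries being 3.11 to 9.00 for each degree of freedom. Coordinates are from GENCODE 44 on GRCh38 and describe that annotation, not the counting. Alternatives were other size factors, no or a stricter filter, DESeq2 1.42.0, other thresholds, a replicate block, and each library left out.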

Additional observations from a re-analysis of the deposited data

How the results depend on the processing

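All 17 called HOX genes kept their direction and their call under every alternative that could test them, apart from the 2-fold threshold, and 266 of the 270 alternative values of the 23 tested genes reported kept direction and side of the threshold. The 4 others were changes of sign of genes that were not called, each with 1 library left out, where the log2 fold change ran from -0.0401 to 0.12 for HOXA11, from -0.0543 to 0.20 for HOXB6 and from -0.0268 to 0.12 for HOXB7. With a threshold of at least 2-fold and p under 0.01, 2 HOX genes were higher, since the other rises were smaller. With at least 10 counts in every library 5 were lower, since fewer genes were tested. Leaving out the members that passed the filter through 1CT alone, an alternative chosen after seeing the data, also left 5. Without a filter 13 were lower, with HOXB9, HOXC4 and HOXC5 added, and DESeq2 gave 11. The alternatives for the sums of paralogs 1 to 3, 4 to 8 and 9 to 13 were also chosen after seeing the data, and none moved a sum ratio beyond its replicate spread. Same-numbered libraries of the lines did not deviate together (correlations of -0.16, 0.22 and -0.14 over 8224 genes), and a fit with a replicate block called 7 higher and 10 lower. The depth limits what can be said of the 15 genes under the filter, and no count of 0 shows absence.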
